A study of Mus musculus with 4 samples.

Results

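The miRNA reads with highly toxic seeds were the RISC-bound short RNAs (R-sRNAs) that carried a miRNA name in the deposited table and a 6mer seed with a viability under 25%. They were chosen by that viability alone, so the viabilities given for them describe the choice and were not tested. The rule gave 3666 of the 85704 sequences, or of the 40045 sequences with a miRNA name. These 3666 sequences fell into 732 forms of 6434, a form being all sequences with 1 miRNA name and 1 6mer seed. They carried 295 of the 2808 seeds found on miRNA reads (10.5%) and belonged to 338 of the 1029 miRNA names.

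The reads came from 4 libraries of Ago-RP-Seq, in which the Ago proteins of the RISC are pulled down from a lysate with a GW182 peptide and the small RNAs they hold are size-selected and sequenced. Each library was made from cortex and hippocampus combined of male C57BL/6J mice (BL6 in the labels), 2 libraries at 2 months of age and 2 at 18 months. The mice carried no transgene and received no treatment, and age is the only difference between the groups that the labels give. The labels do not say how many mice stand behind a library, and p-values measure the spread between these libraries only.

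Within the RISC, an Ago protein holds a short guide RNA and finds mRNAs mainly through the seed at positions 2 to 7, counted from the 5′ end of the guide. A shift of the 5′ end by a single base therefore gives the same miRNA another seed and another set of mRNAs, and a base change inside the seed does the same. In Death Induced by Survival gene Elimination (DISE), guides with G-rich seeds silence genes that cells need to survive. The viability of a seed was measured by the authors in percent of control cells, after a short duplex with that seed was put into cells, and the value used is the average of 3 mouse lines.

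The mature sequences below carried the toxic seeds that held most of the reads, or that are shared by several miRNAs, or whose levels differed most between the ages. They are the RefSeq entries on GRCm38.p6, written 5′ to 3′, and capitals mark the 6mer seed at positions 2 to 7. Of the 338 miRNA names, 293 had a RefSeq mature entry.
miR-22-3p: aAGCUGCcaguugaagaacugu
miR-129-2-3p: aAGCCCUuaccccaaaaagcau
miR-708-5p: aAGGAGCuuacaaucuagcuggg
miR-28a-5p: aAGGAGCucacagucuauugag
miR-744-5p: uGCGGGGcuagggcuaacagca
miR-193a-3p: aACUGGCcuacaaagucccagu
miR-193b-3p: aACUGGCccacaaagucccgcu
miR-879-5p: aGAGGCUuauagcucuaagcc
miR-296-5p: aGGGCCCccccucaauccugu
miR-370-3p: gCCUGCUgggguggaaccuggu

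The second set shows how a form can carry a toxic seed that its mature sequence lacks, or a different toxic seed. For each miRNA the RefSeq mature sequence is followed by the most abundant sequence of its toxic form, with capitals again at positions 2 to 7 of each.
miR-324-3p, mature: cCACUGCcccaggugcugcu
miR-324-3p, read: aCUGCCCcaggugcugcuggu
miR-345-5p, mature: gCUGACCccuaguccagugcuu
miR-345-5p, read: uGCUGACcccuaguccagugc
miR-136-5p, mature: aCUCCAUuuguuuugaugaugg
miR-136-5p, read: gGACUCCauuuguuuugaugau
miR-141-5p, mature: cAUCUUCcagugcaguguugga
miR-141-5p, read: uCCAUCUuccagugcaguguug
let-7g-5p, mature: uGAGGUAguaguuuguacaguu
let-7g-5p, read: cUGAGGUaguaguuuguacaguu
miR-497a-5p, mature: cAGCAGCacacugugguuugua
miR-497a-5p, read: cGGCAGCacacugugguuugu

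Toxic-seed reads were a small part of the miRNA reads and were lower in both older libraries. The share of miRNA reads with a toxic seed was 3.07% (95% Wilson confidence interval 3.06% to 3.08%) and 3.54% (3.52% to 3.55%) at 2 months. In the 18-month mice it was 2.40% (2.39% to 2.41%) and 2.73% (2.72% to 2.74%). The ages did not overlap, with a mean of 3.3% ± 0.330 (SD, n = 2) in the younger mice, 2.56% ± 0.234 (SD, n = 2) in the older ones and a difference of -0.739 percentage points. The two-sided exact permutation p was 0.33, the smallest that 2 libraries against 2 can give. The libraries rested on 9067007 to 11388999 reads, 3 reads being worth 0.263 to 0.331 counts scaled to a common library total (CPM). The intervals and these floors allow for counting error alone, since reads copied by PCR can stem from 1 molecule.

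Most of this difference sat in 1 miRNA, miR-22-3p, which is expressed in many tissues including brain. Without miR-22-3p the shares became 1.43% and 1.47% in the younger libraries and 1.30% and 1.26% in the older, a difference of -0.167 points with no overlap (exact permutation p = 0.33). When sequences of 1 CPM or more on average were each counted once in place of being weighted by their reads, the share was 7.67% to 7.74% in the 4 libraries and the difference turned to 0.0233 points. The sum of the endothelial marker miRNAs miR-126a-3p and miR-126a-5p was also lower at 18 months. It was 12243 and 11472 CPM in the younger and 5422 and 8990 CPM in the older libraries. Markers of microglia and blood leukocytes summed to 3322 and 3790 CPM in the younger and 3051 and 3112 CPM in the older libraries. The sums for oligodendrocytes, red blood cells, neurons and muscle overlapped between the ages. The part of such shifts in cell make-up was not tested, and in bulk tissue fewer cells of a type and less RNA per cell cannot be told apart. Markers of neurons, all 5 of them present, summed to 206330 to 240850 CPM in this tissue of cortex and hippocampus. The liver marker miR-122-5p stood at 5.01 to 7.11 CPM.

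A few forms held most of the toxic-seed reads. The 5 highest forms held 69.6% to 75.4% of them in a library, the 20 highest held 86.9% to 90.3%, and 469 of the 732 forms had a mean under 1 CPM. Seeds between 10% and 15% viability took 47.3% to 59.8% of the toxic-seed reads, nearly all through miR-22-3p, and those under 10% took 2.61% to 3.44%. Of the toxic-seed reads, 81.2% to 83.8% came from 3p arms, against 51.8% to 55.5% of the other miRNA reads. Without miR-22-3p, 3p arms gave 60.2% to 65% of the toxic-seed reads and 51.8% to 55.5% of the others.

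The threshold of 25% passed between well-known miRNAs. Just inside it were miR-370-3p (CCUGCU, 24.6%) at a mean of 346 CPM and miR-423-5p (GAGGGG, 24.2%) at 110.2 CPM. Just outside were the seed GGCAGU (25.1%) of miR-34a-5p at 734 CPM and of miR-34c-5p at 264 CPM, miRNAs that p53 is known to induce, and miR-324-5p (GCAUCC, 25.7%) at 433 CPM.

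The toxic seeds were rich in G and C. Base content was not named in the rule, but viability is a score of the seed itself. The counts over seeds therefore describe what that score selects and were not tested. Counting each seed once, G made up 36.7% of the bases of the 295 toxic seeds and 23.2% of the bases of the 2513 other seeds on miRNA reads, while C made up 29.4% and 23.9% and U made up 18.3% and 26.5%. Weighted by reads, C made up 35.2% and G 33% of the seed bases of the toxic-seed reads, against 23.8% and 22.8% in the other miRNA reads. The dinucleotide GC was in 54.9% of the toxic and 25% of the other seeds, and GG in 46.4% and 21.7%. Among seeds with 4 G, 37 of 100 were toxic, and among those with no G, 17 of 526 were. The base before the seed differed as well. Weighted by reads, 80.8% of the toxic-seed reads began with A and 8.03% with U, whereas 74.9% of the other miRNA reads began with U. Without miR-22-3p, 58.2% of the toxic-seed reads began with A. The median length was 22 bases in both classes.

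Of the 295 seeds, 100 were found on 1 miRNA name and 32 on at least 5. Abundant toxic seeds were mostly the property of a single miRNA: miR-22-3p held 99.999% of the reads of AGCUGC and miR-324-3p held 99.4% of those of CUGCCC. Exceptions were AGCCCU, of which miR-129-2-3p held 60.8% and miR-129-1-3p the rest, GAGGCU (5.8%), shared by miR-879-5p and miR-485-5p, ACUGGC (18.1%), shared by miR-193a-3p and miR-193b-3p, and UGAGGU, which was spread over 9 names. miR-129-1-3p and miR-129-2-3p, like the members of the let-7 family, are near-identical, so their reads could be split by the naming.

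The highest form was miR-22-3p with its mature seed AGCUGC (viability 14.3%), made of 85 sequences. It stood at 15943 and 20059 CPM in the younger libraries and at 10629 and 14195 CPM in the older ones. Both older libraries were below both younger ones. The log2 change on the log2(CPM + 1) scale was -0.54 (SE 0.254), which did not pass the test (limma, unadjusted p = 0.0799). Its gene Mir22 lies on chromosome 11 (mature sequence at chr11:75463772-75463793, + strand, GRCm38.p6), in an exon of Mir22hg that overlaps an exon of Tlcd2. The mature 22-base sequence held 91.7% of the reads of the form.

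The next 4 forms had means of 1077 to 1787 CPM, against 15206 CPM for miR-22-3p. miR-129-2-3p (AGCCCU, 23.7%), from an intron of Mir670hg at chr2:94241376-94241397 (- strand), stood at 1550 and 1768 CPM in the younger libraries and at 2251 and 1579 CPM in the older. miR-708-5p (AGGAGC, 18.0%), from an intron of the teneurin gene Tenm4 at chr7:96249450-96249472 (+ strand), stood at 1048 and 1807 CPM and at 1159 and 1336 CPM. The ages overlapped for both, and their log2 changes of 0.19 (SE 0.245) and -0.15 (SE 0.303) did not pass the test. miR-129-1-3p was at 857 to 1656 CPM, and also overlapped. miR-744-5p (GCGGGG, 17.2%), from an intron of the kinase gene Map2k4 at chr11:65734799-65734820 (- strand), was at 1058, 667, 796 and 775 CPM, in the order 2-month replicates 1 and 2 and 18-month replicates 1 and 2. miR-378a-3p, miR-874-3p, miR-667-3p, miR-676-3p and miR-330-3p followed with means of 252 to 609 CPM, and miR-324-3p, miR-674-3p, miR-485-5p, miR-193a-3p and miR-193b-3p each had a form with a mean of 121 to 161 CPM.

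In 4 of the 84 forms with a mean of 10 CPM or more (4.76%), a library was over 2 times the next highest or under 0.5 times the next lowest. The same held for 42 of all 858 forms (4.9%). In the 4 toxic-seed forms it was a 2-month library, and among all forms a 2-month library in 25 and an 18-month library in 18, with a form that has both counted under each. The forms were those of miR-879-5p, miR-193a-3p, miR-324-3p and miR-543-5p, the last named because it completes the count. miR-879-5p (GAGGCU, 5.8%) ran 56.1, 398, 82.3 and 99.4 CPM in the same order. miR-193a-3p (ACUGGC) ran 43.8, 268, 87.8 and 119 CPM, so its 2-month replicates were the lowest and the highest of the 4. Its seed partner miR-193b-3p ran 193, 105, 121 and 63.7 CPM. The ages overlapped in all 3, and the log2 changes of miR-879-5p and miR-193a-3p were -0.72 (SE 0.860) and -0.09 (SE 0.804).

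miR-324-3p went the other way in the same library, and it differed there in the length of its reads too. Its leading form CUGCCC (20%), which starts 2 bases into the RefSeq mature sequence and held 85.0% of the reads of this miRNA, ran 1279, 451, 1135 and 1445 CPM. Reads longer than the leading 21-base sequence made up 48.3% of the form in replicate 1 of the 2-month mice, 46.4% and 50.3% in the 18-month libraries, and 18.0% in replicate 2 of the 2-month mice. In CPM the longer reads were at 618, 81.1, 526 and 727, and those not longer at 661, 370, 608 and 718. The gap of 28.4 points below the next library was the widest of its kind among the 84 forms, whose median share of longer reads was 11.6% to 13.6% in the 4 libraries. The RefSeq-start form of miR-324-3p (CACUGC, 22.1%) ran 190, 121, 156 and 176 CPM.

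To find which toxic-seed forms differed between the ages, the fit was made over all 858 miRNA forms with a mean of at least 10 CPM, toxic or not. Among the 84 toxic-seed forms, 12 were lower and 2 were higher at 18 months at an unadjusted p under 0.05 (14 forms, 16.7%), against 14.0% of all forms called, 9.56% lower and 4.43% higher. No form passed at an adjusted p under 0.05 (0% of all forms) with limma or edgeR, while DESeq2 passed 2 toxic-seed forms (2.38%), miR-296-5p and miR-370-3p, and 12 of all 858 (1.4%). At an unadjusted p under 0.05, edgeR and DESeq2 each called 5 toxic-seed forms (5.95%), 3 of them lower, against 12.9% and 13.1% of all forms. Most of those calls over all forms were higher at 18 months, 72 of 111 with edgeR and 73 of 112 with DESeq2. Without replicate 1 of the 2-month mice, limma passed 5 toxic-seed forms and 32 of all forms at an adjusted p under 0.05, and without replicate 2 of the 2-month mice 1 and 10. The median log2 change was -0.32 for the toxic-seed forms and -0.15 for all forms. With the libraries rescaled by the median of ratios, which brings the median of all forms to 0, the median of the toxic-seed forms was -0.18, and 4 were called lower and 2 higher, beside 44 lower and 68 higher of all 858. In 35 of the 84 forms (41.7%) both 18-month libraries were below both 2-month libraries, against 33.6% of all forms.

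miR-296-5p fell most. Its seed GGGCCC (15.8%) fell from 258 and 331 CPM to 67.3 and 59.8 CPM. Both older libraries were far below both younger ones, and the means differed 4.64-fold. The log2 change was -2.19 (SE 0.228, limma, unadjusted p = 0.000101, adjusted p = 0.0864), and in DESeq2 the adjusted p was 1.47e-08. The mature sequence lies at chr2:174267093-174267113 (- strand), outside annotated genes of that strand.

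miR-370-3p (CCUGCU) fell from 467 and 479 CPM to 204 and 234 CPM. The log2 change was -1.11 (SE 0.196, limma, unadjusted p = 0.00159, adjusted p = 0.200), and DESeq2 gave an adjusted p of 0.0369. Both miR-296-5p and miR-370-3p kept an unadjusted p under 0.05 in each of the 10 other fits to all 4 libraries and with each library left out.

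The other falls were smaller. miR-874-3p (UGCCCU, 22.8%) went from 661 and 531 CPM to 425 and 350 CPM, miR-770-3p (GUGGGC, 21.4%) from 94.1 and 92.4 CPM to 52.9 and 61.5 CPM, and miR-370-5p (GACCAG, 24.3%) from 95.7 and 93.4 CPM to 65.3 and 64.0 CPM. Their log2 changes were -0.62 (SE 0.223), -0.70 (SE 0.215) and -0.54 (SE 0.205), none with overlap between the ages. The remaining 7 forms that fell, named because they complete the count, were miR-323-5p, miR-28a-5p, miR-342-5p, let-7d-5p, let-7f-5p, a later-starting form of miR-378a-3p and a later-starting form of miR-770-3p, with log2 changes of -0.88 to -0.55. Of all 12, miR-296-5p, miR-370-3p and miR-323-5p kept an unadjusted p under 0.05 in every other fit to all 4 libraries.

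A stretch of chromosome 12 held several of these forms. It holds the miRNA cluster of the imprinted Dlk1-Dio3 region, whose miRNAs are made from the maternal chromosome along with the long RNAs Meg3 and Rian. It was singled out after the values were seen, and its miRNAs lie in chr12:109544588-109747949 (GRCm38.p6). Toxic-seed reads from 45 of its miRNA names summed to 1743 and 1680 CPM in the younger and to 1091 and 1183 CPM in the older libraries. Of the 15 toxic-seed forms tested from this stretch, 13 had a log2 change under 0 and 5 were called lower (33.3%), with a median of -0.58. The 15 forms came from 12 miRNAs and are not independent of each other. The 5 called were both arms of miR-370, the GUGGGC and later-starting forms of miR-770-3p, and miR-323-5p. The 127 other forms from the stretch had 110 under 0, 22 called lower (17.3%) and a median of -0.36. Among toxic-seed forms placed elsewhere, 5 of 58 were called lower (8.62%) and the median was -0.25. A further 11 toxic-seed forms lacked a RefSeq entry and were not placed, with 2 called lower (18.2%) and a median of -0.21. Of the 99 other forms without an entry, 22 were called lower (22.2%). After rescaling, 3 of the 15 were called lower and their median was -0.44. Examples are miR-370-3p (intron of Rian, chr12:109618305-109618326), miR-770-3p (exon of Meg3, chr12:109563744-109563765) and miR-323-5p (chr12:109712523-109712544, + strand like the others), which ran 46.0, 43.4, 23.7 and 26.03 CPM. Not all members moved: miR-136-5p (GACUCC, 3.7%) ran 83.6, 122, 93.7 and 94.6 CPM.

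Both forms that rose are forms whose mature sequence carries a less toxic seed. miR-141-5p, of the miR-200 family known from epithelia, starts 2 bases upstream of its RefSeq start in the form CCAUCU (24.5%), which held 73.6% of its reads. This form rose from 29.5 and 39.2 CPM to 68.7 and 55.9 CPM, with no overlap (log2 change 0.85, SE 0.262, limma, unadjusted p = 0.0192, adjusted p = 0.342). It kept an unadjusted p under 0.05 in all 9 other fits to the 4 libraries and in 2 of the 4 with a library left out, not without replicate 1 of the 2-month or replicate 1 of the 18-month mice.

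miR-497a-5p, of the miR-15/16 family, rose in a form with a changed base. The form GGCAGC (9.7%) has the change A2G, counted from 1 at the 5′ end, relative to the mature seed AGCAGC (37.8%). It rose from 37.1 and 25.6 CPM to 48.6 and 62.3 CPM (log2 change 0.82, SE 0.288, limma, unadjusted p = 0.0315, adjusted p = 0.342). It kept an unadjusted p under 0.05 in 8 of the 9 other fits to the 4 libraries and in 2 of the 4 with a library left out, not without replicate 2 of the 2-month or replicate 2 of the 18-month mice. All reads of miR-497a-5p summed to 1044 and 713 CPM at 2 months and to 690 and 1438 CPM at 18 months, with overlap. Among miR-497a-5p reads with the mature start and either base, the changed base made up 3.64% (95% Wilson confidence interval 3.3% to 4.01%) and 3.69% (3.3% to 4.13%) at 2 months, and 7.29% (6.71% to 7.92%) and 4.46% (4.11% to 4.83%) at 18 months. The intervals of the older libraries did not overlap each other. This was the highest share of A2G among the 98 miRNAs with A at position 2 and a mean of at least 100 CPM, whose median was 0.0514%, and the next was miR-132-5p at 1.40%.

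Forms other than the mature seed held 12.2% and 7.78% of the toxic-seed reads in the younger libraries and 14.01% and 12.8% in the older. The means were 10.01% ± 3.15 (SD, n = 2) and 13.4% ± 0.873 (SD, n = 2), which did not overlap and differed by 3.39 points (exact permutation p = 0.33). This difference rested on replicate 2 of the 2-month mice, without which it was 1.16 points (5.61 points without replicate 1), and on miR-324-3p, without which it was 1.24 points with overlap. Among other miRNA reads the same share was 8.18%, 7.79%, 7.69% and 7.38%. Over the 4 libraries the toxic-seed reads exceeded the others by 3.94 points on average, in 3 of 4 libraries (two-sided exact paired permutation p = 0.25, where 0.13 is the smallest possible). The excess was 0.292 points without miR-324-3p and 16.2 points without miR-22-3p. At a viability threshold of 20% it turned to -1.66 points, and at 30% it was 17.3 points.

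Of the 732 toxic-seed forms, 120 carried the mature seed and 612 did not, but the mature seed accounted for 19936 to 31501 CPM of the toxic-seed reads in a library. Later starts accounted for 1085 to 1996 CPM, earlier starts with the bases of the hairpin for 835 to 1037 CPM, earlier starts with other bases for 234 to 313 CPM, and a changed base at the mature start for 262 to 276 CPM. In 3 of the tested forms without the mature seed, the form was nevertheless the leading one of its miRNA. These were CUGCCC of miR-324-3p, CCAUCU of miR-141-5p and GACCAG of miR-370-5p, which starts 4 bases upstream of the RefSeq start.

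For 215 of the 338 miRNA names the mature seed was not toxic, and together these gave 1730 CPM of toxic-seed reads on average. miR-345-5p gave the most, 340.1, 270.0, 319 and 260.1 CPM, or 44.4% to 58.4% of its reads. Its toxic form GCUGAC (17.3%) starts 1 base upstream of the mature start, whose seed CUGACC has a viability of 33.4%. miR-136-5p had the most toxic seed of the abundant shifted forms, GACUCC at 3.7%, reached by a start 2 bases upstream, and its toxic forms were 0.912% to 3.55% of its reads. miR-300-3p, starting 4 bases downstream (AAGGGC, 19.6%), ran 71.7, 69.8, 52.8 and 58.8 CPM. miR-138-5p, a neuronal miRNA that acts on dendritic spines, had 26 toxic forms with 55.3 to 99.6 CPM in sum.

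The let-7 miRNAs, known regulators of developmental timing and differentiation, reached toxic seeds through 1 extra base at the 5′ end. The seed GAGGUA of their mature start has a viability of 50.3%, and an added base moves it to UGAGGU (20.7%) or, in let-7d-5p, to AGAGGU (22.9%). Over 8 let-7 names these forms summed to 374, 391, 294 and 268 CPM, with no overlap. As a share of all reads of these names they were 0.374%, 0.414%, 0.362% and 0.327%, and all reads of these names summed to 100040, 94554, 81289 and 82062 CPM. Both the pooled share and the sum were lower in the older libraries without overlap. Taken name by name, the share was lower without overlap in let-7a-5p, let-7b-5p and let-7f-5p, and the ages overlapped in the other names. let-7g-5p and let-7d-5p had the highest shares, 0.832% to 0.922% and 0.749% to 0.992%. The added base was C in 83.9% of the let-7g-5p reads and A in 78.6% of the let-7d-5p reads, in each case the base of the hairpin. In let-7a-5p, let-7b-5p, let-7c-5p and let-7f-5p, C also led, with 47.3% to 55.9%, but the leading sequence did not match a hairpin. Of these forms, let-7d-5p and let-7f-5p passed at an unadjusted limma p under 0.05, with log2 changes of -0.55 (SE 0.218) and -0.76 (SE 0.289). They stayed under 0.05 in 2 and 4 of the 9 other fits to all 4 libraries.

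Changed bases in the seed at the mature start were mostly A to G. A to G made up 63.4% of the toxic-seed CPM with 1 changed base, at 173, 156, 176 and 167 CPM. It made up 37.6% of the same kind of change among other miRNA reads. Toxic seeds are rich in G, so a change that adds a G can itself bring a read under the threshold. The contrast therefore describes in part what the score selects and was not tested. The form GGCAGC of miR-497a-5p alone gave a mean of 43.4 of the 167.8 CPM. C to T followed with 14.7% and 17.4%. The levels of A to G were nearly flat across the ages, which overlapped. Such changes were also found in abundant miRNAs, of which a pair is given. miR-132-3p, a neuronal miRNA induced by activity, changed to GACAGU (4.5%) at 19.8, 18.4, 21.0 and 12.2 CPM, and miR-22-3p changed to GGCUGC (21.8%) at 21.5, 20.8, 13.995 and 19.96 CPM. As a share of reads with the mature start, A2G averaged only 0.0579% in miR-132-3p and 0.128% in miR-22-3p. The median over the 98 miRNAs compared was 0.0514%.

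In the miR-15/16 family, which is known to restrain BCL2 and the cell cycle, all reads of the mature seed AGCAGC (37.8%) lay outside the threshold, and A2G gave the leading toxic form GGCAGC in 5 of the 6 members found. miR-16-5p carried it at 15.2, 15.5, 17.1 and 11.9 CPM, out of 14524 to 17480 CPM for the miRNA. In miR-15a-5p, miR-195a-5p and miR-15b-5p it was at 0 to 3.20 CPM, and miR-322-5p had only ACCAGC (10.5%) at up to 0.284 CPM. The toxic share of the miRNA averaged 4.64% for miR-497a-5p and 0.0426% to 0.219% for the other 5. In the family of miR-34 and miR-449, miR-34a-5p and miR-34c-5p had toxic-seed reads, at 0.568 to 1.58 CPM and 0 to 0.441 CPM, and miR-34b-5p, miR-449a-5p and miR-449c-5p had 0. With 3 reads worth 0.263 to 0.331 CPM, the levels of miR-34c-5p were at or near what these depths can show.

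At the level of single sequences, 769 toxic-seed sequences averaged 1 CPM or more, out of 14287 sequences tested in the whole table. Of these, 45 were lower and 17 were higher at 18 months at an unadjusted p under 0.05 (62 sequences, 8.06%), against 10.1% of all sequences called, 4.23% lower and 5.87% higher. The split by direction rested on replicate 1 of the 2-month mice, without which 39 were lower and 42 higher (10.5%, against 9.88% of all sequences). At an adjusted p under 0.05, limma passed 0 of the 769 and 0.0420% of all sequences, edgeR passed 0 and 0.021%, and DESeq2 passed 5 (0.65%) and 0.651%. The median log2 change was -0.19 for the toxic-seed sequences and -0.01 for all. All sequences here include those without a miRNA name, so the contrast is not one among miRNA reads alone. The 62 sequences came from 35 miRNA names, led by miR-370-3p with 8 of 19 tested and miR-296-5p with 7 of 8, all of them lower. The leading miR-296-5p sequence fell from 206 and 251 CPM to 51.8 and 47.6 CPM. Of the 4 miR-22-3p sequences called, of 43 tested, 2 were higher and 2 lower. The 4 of miR-324-3p were all higher, and each had its lowest value in replicate 2 of the 2-month mice. The most abundant of them ran 82.2, 3.86, 91.3 and 122 CPM.

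Reads with toxic seeds but no miRNA name are given for comparison. These 4863 sequences with 401 seeds summed to 2131, 2422, 1982 and 2000 CPM, with no overlap (exact permutation p = 0.33). They made up 5.88% to 7.24% of the reads without a miRNA name, a larger part than the toxic-seed reads made up of miRNA reads. Seeds of the next class, from 25% to under 50%, held 22.9%, 23.6%, 25.8% and 22.5% of the miRNA reads, and the ages overlapped.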

How the data were processed

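Small RNAs pulled down with Ago were sequenced from 2 libraries each of 2-month and 18-month mice, grouped by the labels. The authors trimmed (Trim Galore, per the submitters' processing notes), cleaned and tabulated the reads, removed rare ones, named the rest by BLAST against mouse small RNAs and deposited CPM values, each library being scaled to the same total. The deposited viability of each seed is a score of the authors, the mean of 3 mouse cell lines. Other versions and a genome build are not given in the sources used here. The members, lists and rule for named forms were chosen with earlier results of these data known.

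Dividing CPM by what 1 read was worth gave whole reads for 100% of values (tolerance 0.05 reads). Each read was placed on its RefSeq mature sequence or, where its name had none, on the most abundant read of that name, and T was written as U. Forms averaging 10 CPM or more, and sequences averaging 1 CPM or more, were fitted with limma, with an intensity trend and age as the covariate, on log2(CPM + 1), two-sided, over all miRNA forms or all sequences, and p-values were adjusted by Benjamini-Hochberg over all of them. Because of the pseudocount, low forms show smaller log2 changes than their CPM would. Shares per library were compared by exact permutation.

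Named are the 20 highest forms; the 5 largest rises and 5 largest falls in mean CPM among tested forms that passed at an unadjusted p of 0.05 with separate ages; the 10 miRNAs without a toxic mature seed that had the most toxic-seed CPM; and members of the miR-34 and miR-449 family and the miR-15 and miR-16 family with toxic-seed reads. Others named were chosen after their values were seen. Genome places are RefSeq on GRCm38.p6 with GENCODE genes of the same build; names with no RefSeq entry, or lying on a chromosome not printed here, are given without sequence. The alternatives were other pseudocounts, filters, viability thresholds, scalings and denominators, limma without the trend, edgeR and DESeq2 on the recovered reads, a replicate block and leaving out each library. The fits were tested on simulated data with changes larger than most of those called here, so that test does not show how well smaller changes are found. Tools were R 4.3.3, limma 3.58.1, edgeR 4.0.16, DESeq2 1.42.0, Python 3.11.15, numpy 2.4.6, pandas 2.3.3 and scipy 1.17.1.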

Additional observations from a re-analysis of the deposited data

How the results depend on the processing

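The 14 toxic-seed forms called with age became 39 of 732 without the filter on low values (5.33%, against 5.25% of all forms), 3 with a minimum mean 10 times higher (13.6% against 15.9%), 6 after rescaling by the median of ratios (7.14% against 13.1%), 5 with edgeR (5.95% against 12.9%), 5 with DESeq2 (5.95% against 13.1%), 5 at a viability under 20% and 0 at an adjusted p under 0.05, where limma passed 1 without the filter and 1 with the higher minimum; with 1 library left out they were 7 to 11, with 8 without replicate 1 and 7 without replicate 2 of the 18-month mice. The 62 toxic-seed sequences became 192 without the filter (5.24% against 3.88% of all sequences) and 15 with the higher minimum (8.38% against 13.5%). They were 35 with DESeq2 (4.55% against 6.59%). At a viability under 20% the main fit gave 33, beside 10.1% of all sequences called. At an adjusted p under 0.05 the main fit gave 0 toxic-seed sequences, beside 0.042% of all sequences. With 1 library left out, the median log2 change of the toxic-seed sequences was -0.24 to -0.15, against -0.04 to 0.02 for all sequences. Same-numbered libraries share only a number (correlation of their deviations 0.135 over forms and 0.0356 over sequences). With the replicate number as a block, limma called 11 toxic-seed forms (13.1% against 12.8% of all forms). Of these 1 was higher, miR-497a-5p being lost at an unadjusted limma p of 0.0763. With the block, limma called 71 toxic-seed sequences (9.23% against 10.7%) and edgeR 5 forms (5.95% against 12.7%). The paired difference in the toxic-seed share was -0.739 points (pairs -0.671 and -0.807). The toxic-seed share differed by -0.972 to -0.506 points with 1 library left out and by 0.0233 points when each sequence was counted once. The share of non-mature seeds among toxic-seed reads differed by 1.16 to 5.61 points with 1 library left out, by 1.59 and 6.01 points at thresholds of 20% and 30%, and by 1.37 points with the most abundant form as the mature one. Its excess over other miRNA reads was 3.15 to 5.26 points with 1 library left out, -1.66 points at 20%, 16.2 points without miR-22-3p and 0.292 points without miR-324-3p. With 1 library left out, the log2 change ran from -0.07 (without replicate 1 of the 18-month mice) to 0.44 for miR-129-2-3p, from -0.67 to 0.28 for miR-129-1-3p and from -0.54 to 0.25 for miR-708-5p, the last 2 turning without replicate 2 of the 2-month mice; miR-708-5p was 0.02 in edgeR with the block. The removal of miRNAs, the RefSeq-only set, the edgeR block, the pairing of the non-mature share and all alternatives of the excess were chosen after seeing the data. The cause of these changes was not tested. With 2 libraries per age, no value per library can reach an exact p under 0.33.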
